A study of Mus musculus with 2 samples.

Results

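First-intron peaks are the peaks of PARIS-FLAG signal that fall in the intron between the first and the second exon of an annotated transcript. They were taken from the authors' annotation, which places the stretch of highest coverage of a peak relative to genes, as every peak whose annotation class begins with intron and names intron 1 of a transcript. The rule gave 12404 of 99782 annotated peaks, or 12.4% (Wilson 95% interval 12.2 to 12.6), and 32.7% (32.2 to 33.2) of the 37912 intronic peaks. The other 25508 intronic peaks lay in later introns and are used below for comparison. Intervals on shares and densities cover counting error over peaks only, because peaks of 1 library are not replicates.

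The samples were hippocampi of C57BL/6J mice with the genotype CamK-PARIS. The study made 1 CUT&Tag library with an anti-FLAG antibody and 1 with IgG, and the authors called the anti-FLAG peaks against the IgG library. CUT&Tag directs the transposase Tn5, through protein A and an antibody, to cut and tag the DNA beside the antibody's target. Both libraries carried the CamK-PARIS genotype and no treatment, and the labels give no age, number of animals, promoter construct or tagged-allele design. With 1 library per antibody, no value below has replicate error and no difference between antibodies was tested. Depth is unknown, and no IgG signal was analysed here.

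PARIS, encoded in the mouse by Zfp746, is a Krüppel-type zinc-finger repressor known as a substrate of the ubiquitin ligase parkin and as a repressor of Ppargc1a, the gene of the mitochondrial coactivator PGC-1alpha. Its reported binding element is the insulin response sequence (IRS), an AT-rich word. First introns are usually the longest introns of a gene and often hold enhancers and alternative promoters, and long first introns are common in genes of neuronal adhesion, ion channels and synapses.

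The DNA under the members is shown first for the 5 with the highest maximum signal, since these include both repeated and ordinary sequence. Each is 200 bases of the plus strand of mm10 (GRCm38.p6) around the summit, the midpoint of the stretch with the highest coverage. Capitals mark the word TGACTCA or its reverse complement TGAGTCA, the core bound by AP-1 (Fos and Jun family) proteins, or an IRS word (TATTTTT or TATTTTG, either strand).
Gm31718, chr8:126856716-126856915: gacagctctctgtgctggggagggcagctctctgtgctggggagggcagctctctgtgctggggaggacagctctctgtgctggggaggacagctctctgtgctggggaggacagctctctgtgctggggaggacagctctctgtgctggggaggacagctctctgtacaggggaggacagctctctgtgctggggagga
Arhgef17, chr7:100911792-100911991: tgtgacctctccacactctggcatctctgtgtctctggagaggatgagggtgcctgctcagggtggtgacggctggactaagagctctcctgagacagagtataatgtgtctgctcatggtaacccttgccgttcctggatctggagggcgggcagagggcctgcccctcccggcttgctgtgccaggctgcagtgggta
Cmip, chr8:117332367-117332566: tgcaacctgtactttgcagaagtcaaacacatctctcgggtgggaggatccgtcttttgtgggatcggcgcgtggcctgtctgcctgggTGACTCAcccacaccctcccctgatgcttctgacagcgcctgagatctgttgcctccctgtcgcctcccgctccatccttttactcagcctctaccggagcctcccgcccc
Mical3, chr6:121048158-121048357: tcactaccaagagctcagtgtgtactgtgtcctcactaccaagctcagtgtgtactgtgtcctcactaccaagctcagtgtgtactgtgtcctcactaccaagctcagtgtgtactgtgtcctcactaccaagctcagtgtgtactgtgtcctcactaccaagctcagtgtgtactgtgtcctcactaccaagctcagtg
Nrxn3, chr12:88738512-88738711: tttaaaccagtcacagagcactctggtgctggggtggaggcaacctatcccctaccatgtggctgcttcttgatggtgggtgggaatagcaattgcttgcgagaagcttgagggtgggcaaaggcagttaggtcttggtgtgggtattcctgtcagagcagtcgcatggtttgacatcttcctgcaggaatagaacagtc
The windows in Gm31718 and Mical3 are tandem repeats. In Gm31718, 96.8% of bases equalled the base 44 positions further on, and in Mical3 94.7% equalled the base 30 positions further on. In the other 3 windows, no shift from 5 to 60 positions gave more than 35.9%. The Cmip window has an AP-1 word close to its centre, and none of the 5 has an IRS word.

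The words themselves are shown, in the central 100 bases, for the 3 tallest other members with an AP-1 word there and then for the 3 tallest with an IRS word there, leaving out constant-height peaks (defined below).
Ntrk3, chr7:78602006-78602105: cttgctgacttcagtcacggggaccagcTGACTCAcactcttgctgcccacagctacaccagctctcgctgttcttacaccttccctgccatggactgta
Gm16223, chr5:42168234-42168333: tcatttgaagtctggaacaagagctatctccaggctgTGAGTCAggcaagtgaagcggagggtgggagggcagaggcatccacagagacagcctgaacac
Bsn, chr9:108157700-108157799: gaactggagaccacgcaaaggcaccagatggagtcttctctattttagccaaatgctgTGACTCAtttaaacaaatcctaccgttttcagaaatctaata
Vgll4, chr6:114892555-114892654: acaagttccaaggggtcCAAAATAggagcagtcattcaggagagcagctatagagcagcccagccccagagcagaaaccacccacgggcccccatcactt
Gm20388, chr8:121687965-121688064: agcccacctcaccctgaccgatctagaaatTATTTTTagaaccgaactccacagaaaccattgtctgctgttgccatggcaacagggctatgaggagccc
Cacng3, chr7:122706687-122706786: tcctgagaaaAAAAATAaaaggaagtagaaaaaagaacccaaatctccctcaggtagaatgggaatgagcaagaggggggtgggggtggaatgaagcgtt
Ntrk3 (a neurotrophin receptor; maximum signal 512), the non-coding gene Gm16223 (413) and Bsn (the presynaptic scaffold bassoon; 361) ranked 24, 61 and 101 among all members. The IRS examples in Vgll4 (a transcription cofactor; 371), in the readthrough transcript Gm20388 described below (357) and in Cacng3 (an auxiliary subunit of AMPA receptors; 329) ranked 91, 103 and 153.

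The tallest member of all lay in intron 1 of 8 of Gm31718, on chromosome 8 from 126855789 to 126857604, with a maximum signal of 1193 and a total signal of 602770, the highest of both measures among members. Maximum signal is the authors' highest coverage in the peak and total signal its coverage summed over bases. Second was a peak of 974 in intron 1 of 20 of Arhgef17, a guanine-nucleotide exchange factor (chromosome 7, 100911425 to 100912688), 16.7 kb into a 38.1 kb intron. The peak in Cmip, an adaptor protein gene, reached 950 (chromosome 8, 117332055 to 117333048) and lay 75.1 kb into a 120 kb intron. Mical3, which encodes an actin-oxidising enzyme, held a member of 759 (chromosome 6, 121047888 to 121048627), and Nrxn3, the presynaptic adhesion molecule neurexin-3, one of 662 (chromosome 12, 88737344 to 88738934). By total signal, Gm28578 (554252; maximum 645; chromosome 19), Dnm1, the dynamin of synaptic vesicle endocytosis (459477; maximum 611; chromosome 2), Nrxn3 (354461) and Syt7, a calcium sensor of vesicle fusion (333675; maximum 621; chromosome 19), followed Gm31718. None of these peaks had constant height, as defined next, and the 5 tallest members ranked 6, 13, 17, 37 and 74 by maximum signal among all peaks.

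Most members were far lower. Their maximum signal had a median of 101 (quartiles 66 and 133, range 5 to 1193) and their width a median of 353 bp (quartiles 183 and 565, range 35 to 4317). Later-intron peaks had nearly the same medians, 100 and 337 bp. A peak was called constant-height when its total signal reached at least 99% of maximum signal times width, so that its coverage is a flat block. This held for 7998 members, or 64.5% (63.6 to 65.3), against 66.3% (65.7 to 66.9) of later-intron peaks, a difference of -1.85 percentage points (Newcombe 95% interval -2.87 to -0.825). Constant-height members had a median width of 244 bp and none was wider than 700 bp. The other 4406 members had a median width of 592.5 bp and a median maximum of 130.

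Members made up 12.4 to 13.2% of the peaks in each of the 9 lower deciles of maximum signal and 10.5% (9.93 to 11.1) in the highest decile. Among intronic peaks alone the first-intron share stayed between 31.9 and 33.9% in every decile. At the edge of the rule, the nearest member lay 3001 bp from the start site (TSS) of its assigned transcript and the farthest promoter peak 3000 bp. The 458 members from 3 to 3.5 kb had a median maximum signal of 96, and the 1887 promoter peaks from 2.5 to 3 kb had 98.

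The classes were also read from GENCODE M21, which is no independent check, since most transcripts named by the authors are in it. It contained the named transcript for 12224 members (98.5%), and placed the summit in a first intron more than 3 kb from any TSS for 91.2% of those on assembled chromosomes. Another 8.83% lay near some other TSS, in an exon or in another class, and 2 members lay in later introns only. Over all intronic peaks, this reading called 43.9% first-intron, against 32.7% in the authors' table. For 16.2% the position was also a later intron of some other transcript. The transcript's start coincided with the 5′ end of its gene for 77.2% and lay more than 10 kb inside the gene for 757 members (6.19%). The host gene was protein-coding for 82.5% of members, a lincRNA gene for 11.5% and an antisense gene for 3.70%. The gene whose intron held the peak was the gene the authors assigned by nearest TSS for 73.9% of members. Genes below are therefore named by the intron, not by the nearest TSS.

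A single transcript shaped the class on chromosome 8. The annotated readthrough gene Gm20388 has a first intron of 4384 kb, from 119910940 to 124295357, that runs across many other genes. It received 319 members, 2.57% of the class and 33.2% of the 960 members on chromosome 8. The authors' table assigned these to 54 genes, with 67 to Gse1, 21 to Jph3 (junctophilin-3) and 17 to Zfpm1, and none to Gm20388 itself. Without this transcript, 130 of the 319 were still in the first intron of another GENCODE gene, 61 became later-intron and 128 belonged to other classes. Chromosome 8 had the highest first-intron share of intronic peaks, 42.6%, against 28.5 to 38.1% on the other autosomes.

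First introns carried more peaks per length than later introns. In GENCODE M21, first-intron sequence outside exons and more than 3 kb from any TSS held 46.9 peaks per Mb (16291 peaks in 347 Mb) and later-intron sequence 39.0 per Mb (20834 peaks in 534 Mb), a ratio of 1.20 (exact conditional Poisson 95% interval 1.18 to 1.23). Here a position that is a first intron of any transcript counts as first, so the count exceeds the number of members. Constant-height peaks had a ratio of 1.17 (1.14 to 1.20), and peaks of other shape one of 1.28 (1.24 to 1.33). Counting sequence shared with a later intron as later lowered it to 1.14 (1.11 to 1.17).

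Density also moved with the distance to the nearest TSS, so the 2 kinds of intron were set side by side at matched distance. The first intron of Gm20388 was left out of this comparison. From 3 to 5 kb of a TSS the density was 53.1 peaks per Mb in first and 47.7 in later introns, and beyond 100 kb it was 31.1 and 28.0. The ratio at matched distance was 1.11 from 3 to 5 kb, 1.15 from 5 to 10 kb, 1.18 from 10 to 20 kb, 1.16 from 20 to 50 kb and 1.09 from 50 to 100 kb. Beyond 100 kb it was 1.11 with an interval of 0.994 to 1.24, which includes 1.

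**Figure D1:**
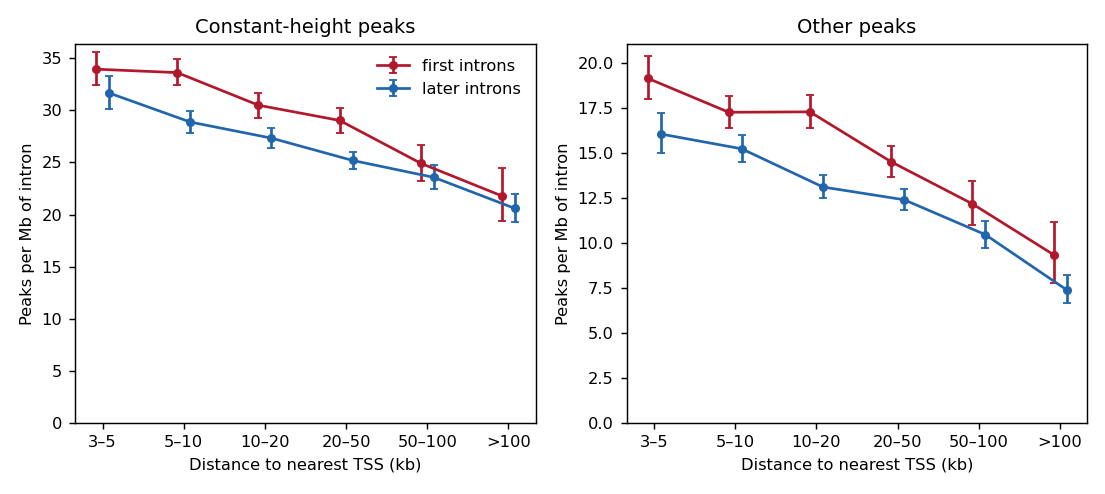
Peaks per Mb of first-intron and later-intron sequence (vertical axis) against distance to the nearest TSS (horizontal axis, kb), for constant-height peaks (left) and other peaks (right). Points are densities in the single anti-FLAG library, without the first intron of Gm20388, and bars are exact Poisson 95% intervals. Densities are lower beyond 100 kb than from 3 to 5 kb in both kinds of intron, and the point for first introns lies above that for later introns in each bin.

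Outside the 3 kb around a TSS, peaks within the intron were not packed toward the 5′ end. Packing closer to the TSS could not be judged, because peaks within 3 kb of the assigned TSS count as promoter peaks. Members lay a median of 22.9 kb from the 5′ end of their intron, 27.7% (26.9 to 28.5) lay within 10 kb of it, and the introns that held them had a median length of 52.4 kb. Along the longest first intron of each protein-coding gene, leaving out Gm20388, density was 55.9 peaks per Mb in the first 5 kb and 55.6 from 5 to 10 kb. It was 52.7 from 10 to 20 kb, 54.3 from 20 to 50 kb and 51.3 from 50 to 100 kb, all outside the 3 kb around a TSS. It was 41.5 from 100 to 200 kb and 34.9 beyond 200 kb. In introns of 20 to 100 kb the densities ranged from 54.7 to 61.2 per Mb and were 60.1 in the first 5 kb and 61.2 beyond 50 kb. In the 631 introns longer than 100 kb, density was lower far from the 5′ end. It was 52.3 (40.3 to 66.8) in the first 5 kb, 52.8 from 5 to 10 kb and 48.9 from 10 to 20 kb. From 20 to 50 kb it was 43.1, from 50 to 100 kb 46.1, from 100 to 200 kb 41.5 and beyond 34.9 (32.5 to 37.3). Only introns longer than 200 kb reach the last bin, so it does not come from all 631. The parts of position and intron length were not tested.

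The 12404 members fell into 4653 introns of 4545 genes. Among protein-coding genes with first-intron sequence outside exons and promoters, 3258 of 11035 had at least 1 member, a background of 29.5% against which the gene lists below are read. Of the 4545 genes, 2290 (50.4%) had 1 member, and the 145 genes with more than 10 held 2680 members, 21.6% of the class. Leaving out Gm20388, 80.0% of members shared their intron with another member, and 33.0% of these had a neighbour within 2 kb. The share of genes with a member rose with the usable length of the first intron, from 6.96% under 5 kb to 27.9% at 5 to 20 kb, 56.6% at 20 to 50 kb, 69.9% at 50 to 100 kb and 77.3% above 100 kb. Members per Mb of usable sequence did not rise in this way. In the same order of classes they were 39.6, 41.5, 44.7, 40.8 and 25.9. Genes with another peak within 1 kb of a TSS had a first-intron peak in 37.1% (35.8 to 38.3) of cases and genes without one in 21.6% (20.6 to 22.8). That order held in each of the 5 length classes, for example 62.5% against 48.0% at 20 to 50 kb.

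**Figure D2:**
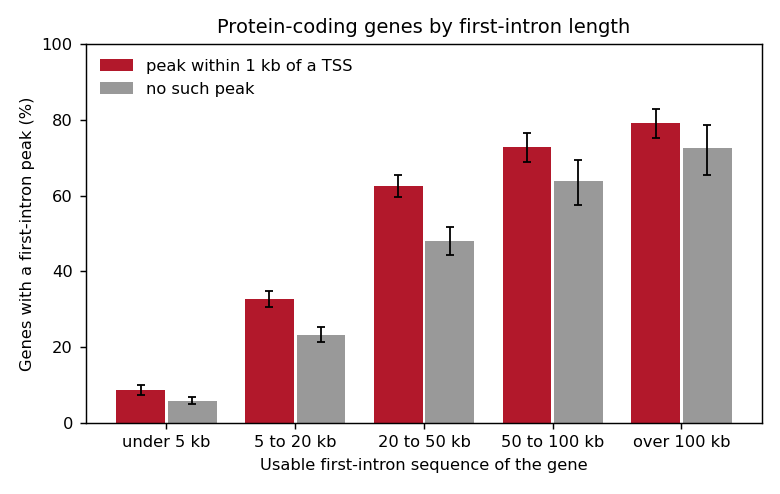
Share of protein-coding genes with at least 1 first-intron peak (vertical axis, %) by usable first-intron length (horizontal axis), split by whether the gene also has a peak within 1 kb of a TSS. Bars show shares and lines Wilson 95% intervals. The share rises with length in both groups, and genes with a TSS peak are higher in every length class.

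After Gm20388, the genes with the most members were Asic2 with 69, Ntm with 42, Maml3 with 37 and Kcnma1 with 35. Counts per intron follow the annotation, which names 1 intron per peak. Asic2 encodes an acid-sensing sodium channel. The annotation named an intron of 996 kb on chromosome 11 (80971615 to 81967629) for 55 of its members, or 55.2 per Mb. These 55 had maximum signals from 9 to 222 with a median of 94, and 12 were not of constant height. Its other members were annotated to a shorter first intron (80971615 to 81151757) within the same span, with a highest maximum of 285. All 69 thus lay within the longer intron. Ntm encodes neurotrimin, an adhesion molecule of neurons, and its 42 members in a 551 kb intron of chromosome 9 had maxima of 18 to 266 (median 96.5). Maml3 encodes a Notch coactivator, with 26 members in a 247 kb intron (105 per Mb). Kcnma1 encodes the large-conductance calcium-activated potassium channel, with 23 in a 153 kb intron (150 per Mb) and a highest maximum of 498 in its other intron. The 55 members annotated to the longer intron of Asic2 lay from 25.7 to 807 kb from its 5′ end. Those with maxima of 154 or more lay between 245 and 651 kb.

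**Figure D3:**
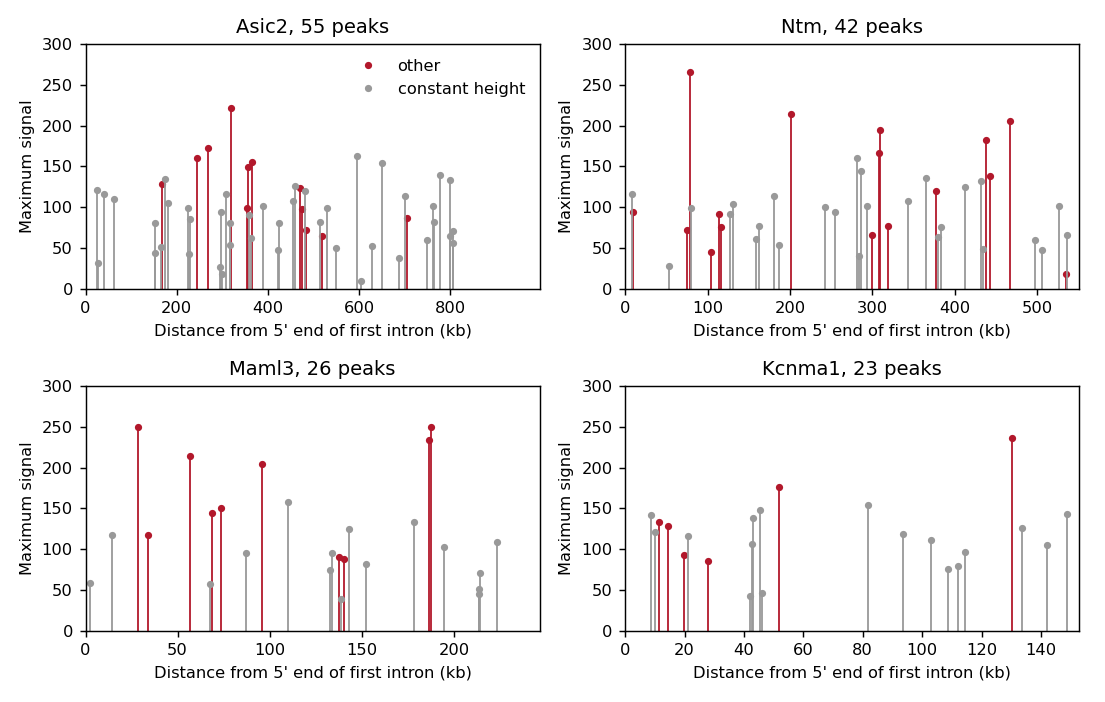
Maximum signal (vertical axis) of each first-intron peak against distance from the 5′ end of the intron (horizontal axis, kb) in the intron of Asic2, Ntm, Maml3 and Kcnma1 with the most peaks. Each line is 1 peak of the single anti-FLAG library, grey for constant height. In Asic2 12 of the 55 drawn peaks are not grey, and no drawn peak exceeds 266. Members annotated to another first intron of the same gene are not drawn. In Asic2 that intron lies within the drawn one, and its members include a peak of 285.

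Counted per length, the densest first introns of at least 20 kb with 5 or more members belonged to other genes. Dnmt3a, a de novo DNA methyltransferase, had 11 members in 28.8 kb (382 per Mb; chromosome 12, 3806233 to 3835026). Along the transcript, their maximum signals were 162, 39, 147, 393, 210, 215, 172, 337, 59, 420 and 334, and 8 of the 11 were not of constant height. The median of 210 lay above the 189 that marks the highest decile of all peaks. Dlgap4, a postsynaptic scaffold gene, had 19 members in 50.9 kb (373 per Mb) with maxima from 21 to 337. Ppp1r37 had 8 in 24.3 kb (329 per Mb), all at or below 111. Kcnc1, a fast-gating potassium channel gene, had 9 in 29.1 kb (309 per Mb), with maxima of 157, 93, 151, 172, 101, 144, 46, 124 and 226. Crmp1, which encodes a collapsin response mediator, had 7 in 22.7 kb (308 per Mb).

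Of 9 listed genes with insulin response sequences or other links to PARIS, 7 had usable first-intron sequence and 1 of these had members (14.3%; Wilson interval 2.57 to 51.3). No member lay in Ppargc1a (9.96 kb of usable sequence), Nrf1 (31.6 kb), Zfp746 (8.92 kb), Mdm4 (3.61 kb), Tkt (2.25 kb) or G6pc (0.144 kb), and Pck1 and Igfbp1 had no usable sequence. Camk2a, the calcium/calmodulin-dependent kinase gene listed because of the genotype's name, had 6. They lay in a 15.4 kb intron on chromosome 18 (60925841 to 60941286), with maximum signals of 195, 117, 202, 109, 109 and 140 from the 5′ to the 3′ end, and 2 of them had constant height. That is 408 members per Mb of usable sequence. The intron is shorter than the 20 kb required for the ranking above.

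The lists of synaptic adhesion, transcription factors, splicing factors and ion channels had a larger share of genes with a member than the background of 29.5%, and they also had longer first introns than the median of 7.59 kb over all protein-coding genes. Per Mb of usable sequence they lay on both sides of the 34.7 members of all protein-coding genes. That value pools all lengths. Genes with more than 100 kb of usable sequence had 25.9 per Mb, and the shorter length classes had 39.6 to 44.7. The lists were not compared with genes of matched length. Synaptic adhesion had 19.3 members per Mb and neuronal transcription factors 33.9, while calcium and sodium channels had 42.6, splicing factors 43.3 and potassium channels 47.5. Every value per Mb of usable sequence divides members by the authors' labels by sequence from GENCODE transcripts. Some members lie outside that sequence, such as a Celf4 member 1250 bp from a GENCODE TSS. Peaks inside it with other labels are not counted. With GENCODE used for both, first introns of protein-coding genes held 50.5 peaks per Mb. Whether the order of the lists holds under that count was not tested. In synaptic adhesion 13 of 17 genes had a member (76.5%; Wilson interval 52.7 to 90.4), with a median usable length of 418 kb. Ntm (42) was followed by Opcml (33), Cadm1 (19) and Cadm2 (19). Among neuronal transcription factors it was 15 of 21 genes, led by Rora with 31, Foxp1 with 21, Auts2 with 14 and Nfix with 7. In the splicing factors of neurons 13 of 19 had members, with 20 in Rbfox1, 18 in Celf4, 16 in Celf2 and 14 in Rbfox3, the gene of the neuronal marker NeuN. Celf4 reached its count in 63.7 kb of usable sequence (282 per Mb), while Rbfox1 spread its 20 over 875 kb (22.9 per Mb).

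Ion channel genes had members in similar proportion. For potassium channels it was 13 of 20 genes, among them Kcnma1 (35), Kcnq3 (22) and Kcnip4 (22). Kcnq3, a subunit of the M-current channel, carried its 22 in 239 kb of usable sequence (91.9 per Mb), with maxima from 17 to 228, whereas Kcnip4 had 848 kb (26.0 per Mb) and maxima from 9 to 203. Among calcium and sodium channels 12 of 18 had members, led by Cacna1e with 18, Cacna1d with 7, Scn8a with 5 and Cacna2d1 with 4. Receptor genes were nearer the background. Glutamate receptors had 7 of 21 (33.3%) with a median usable length of 125 kb and 13.2 members per Mb, among them Grik4 with 10 and Grm3 and Grm4 with 6 each. GABA receptors had 3 of 9, led by Gabbr2 with 12.

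Markers of cell types gave small counts, read beside the background of 29.5%. From 6 to 12 genes of each marker list had no usable first-intron sequence and were left out. Per Mb of usable sequence, astrocyte genes had 74.9 members and excitatory neuron genes 35.2. Oligodendrocyte genes had 27.9, interneuron genes 15.0 and microglia genes 5.31, against 34.7 over all protein-coding genes. These values also divide members by the authors' labels by sequence from GENCODE transcripts. Of excitatory neuron genes 5 of 11 had members, among them Camk2b with 7 and Mpped1 with 3 beside Grik4 and Camk2a. Interneuron genes had 3 of 8 (Nos1 with 6, Adarb2 and Erbb4 with 4 each). Astrocyte genes had 4 of 8, with 7 in the glutamate transporter gene Slc1a2, 4 in Slc4a4, 2 in Aldh1l1 and 1 in Acsbg1. Oligodendrocyte genes had 3 of 12 (Cspg4 and Mbp with 3 each, Prr5l with 2), and microglia genes 1 of 10, a single peak of maximum 150 in Cx3cr1. Genes of other tissues had 1 of 12, with 3 members in Hnf4a, and respiratory-chain genes 2 of 15, with 1 member each in Ndufs4 and Atp5c1. None of the 25 cytosolic ribosomal protein genes had usable first-intron sequence. A peak in a marker gene is not a measure of its expression, and in bulk tissue the cells that gave the signal cannot be told apart. The part of first-intron length in the differences between lists was not tested.

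**Figure D4:**
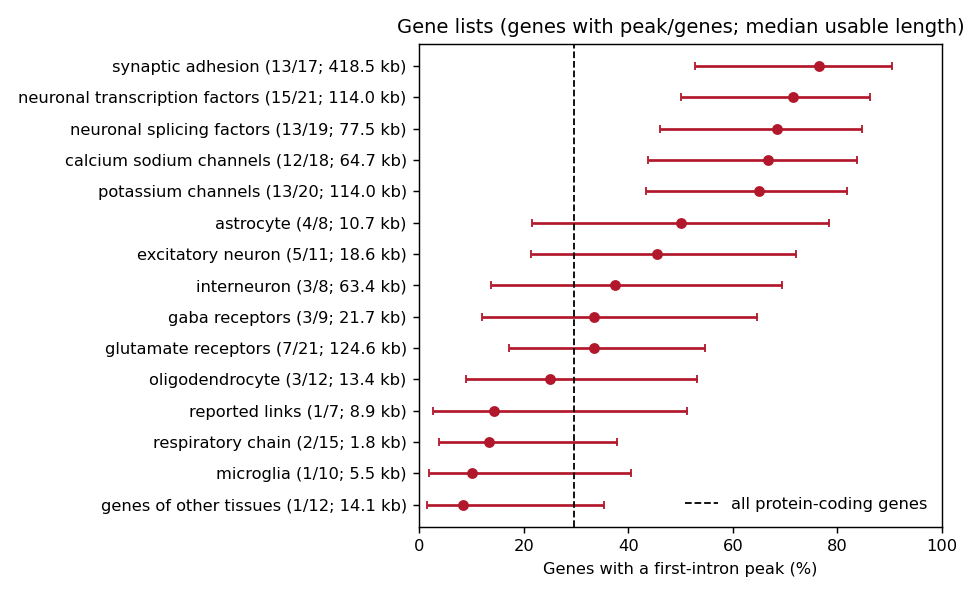
Share of genes with at least 1 first-intron peak (horizontal axis, %) for each gene list (vertical axis, with genes with a peak, genes with usable first-intron sequence and median usable length in kb). Points are shares, bars Wilson 95% intervals and the dashed line the 29.5% over all protein-coding genes. The adhesion, channel, splicing-factor and transcription-factor lists lie right of the line and also have long first introns.

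Among the words found in more than 1% of member summits, the AP-1 word had the highest ratio of summit to flank. It occurred in 925 of 12400 summit windows of 200 bp, 7.46% (7.01 to 7.94), and in 3.78% of windows 1000 bp to either side, a ratio of 1.97. A word of the same letters in another order (TCAGTCA or its reverse complement TGACTGA) was found in 3.82% and 3.38%, a ratio of 1.13. The AP-1 share grew with the height and shape of the peak. Constant-height members had it in 6.24% (5.73 to 6.79) of summits, the other members in 9.67% (8.83 to 10.6), and members in the highest decile of maximum signal in 11.8% (124 of 1049), while their flanks stayed between 3.62 and 3.81%. Later-intron summits had 7.31%, a difference of 0.149 points (-0.406 to 0.719), and all peaks together 6.73% against 3.63% in flanks, so the word was not particular to first introns.

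The IRS went the other way. It occurred in 10.7% (10.2 to 11.2) of member summits and 13.7% of their flanks, a difference of -3.02 percentage points (-3.70 to -2.32). In members that were not of constant height it was 8.08% against 12.5%. GC content moved beside it: it was 47.6% ± 7.34 (SD over 12400 summits) against 45.0% in flanks, and the excess was 4.08 points in members not of constant height and 1.81 in the others. In windows free of repeat-masked bases the IRS difference was -1.05 points (-2.35 to 0.242), over 2375 pairs of a summit and a flank. A summit entered this count for each of its flanks that was free of such bases. Both IRS intervals treat summit and flank windows as independent, although they come from the same peaks. The part of base composition in the IRS difference was not tested.

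Other words were shifted less or were rare. The GC box GGGCGG, a site of SP/KLF factors, was in 4.28% of summits and 2.64% of flanks. The E-box CAGCTG was in 11.7% and 9.57%, and the E-box CAGATG, a NeuroD-type site, in 17.3% and 16.4%. The EGR word GCGNGGGCG had 24 summits (0.194%) against 0.0806% of flank windows, and the cAMP response element TGACGTCA 26 summits (0.210%; flanks 0.137%). CCANNAGNNGGC, part of the CTCF motif, was in 1.62% of summits and 1.29% of flanks. The NFI word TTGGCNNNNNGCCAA was in 2 summits. The MEF2 word CTANNNNTAG was in 3.09% of summits and 3.10% of flanks, and it was less frequent than at later-intron summits (3.58%), a difference of -0.496 points (-0.870 to -0.108). With 11 words compared between first and later introns, MEF2 alone had a 95% interval that left out 0, and the intervals are not adjusted for the number of words. Motif words overlap in part, and a match of letters does not show that a factor was bound.

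**Figure D5:**
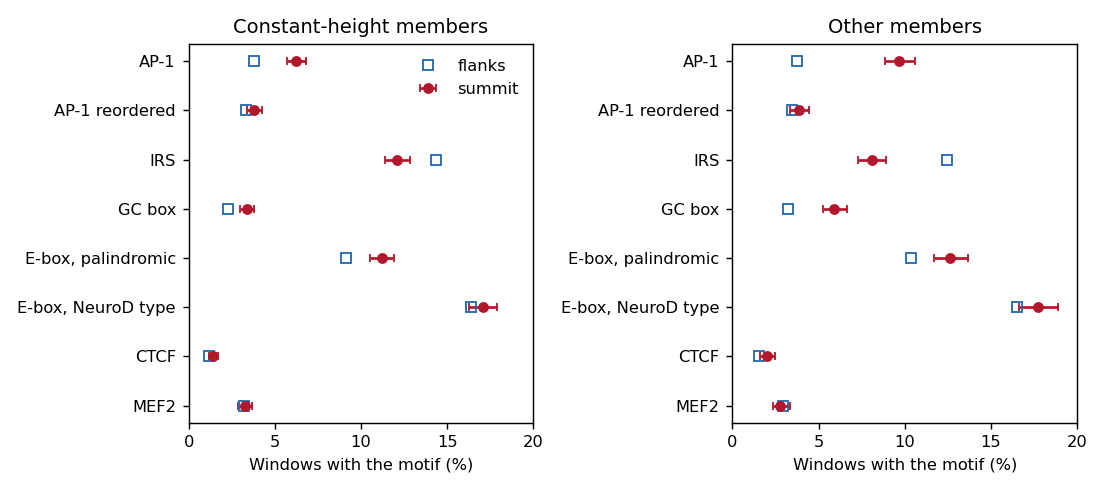
Share of 200 bp windows with each motif word on either strand (horizontal axis, %) at first-intron peaks of constant height (left) and other first-intron peaks (right). Filled points are summit windows with Wilson 95% intervals and open squares are windows 1000 bp to either side. The AP-1 point lies right of its flank value in both panels and farther in the right one, and the IRS point lies left of its flank value in both.

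Summit sequence of members resembled that of later introns and differed from that of promoters. Windows with 10 or more CpG dinucleotides, as in CpG islands, made up 0.903% (0.751 to 1.09) of member summits, 0.518% (0.437 to 0.614) of later-intron summits and 26.0% of promoter summits. The difference between first and later introns was 0.386 points (0.206 to 0.585). Repeat-masked bases covered 22.9% of member summits and 24.6% of flanks. Tandem repeats like those in Gm31718 and Mical3, with at least 80% of bases equal at some shift from 5 to 60 positions, made up 124 of 12400 summits (95% interval of the share 0.839 to 1.19%) and 0.407% (0.335 to 0.495) of flanks. They were found in 2.43% (2.01 to 2.93) of members that were not of constant height and in 0.213% (0.133 to 0.340) of constant-height members. Among the 20 tallest members 2 were tandem repeats, and among the 100 tallest 4. Later-intron summits had 1.07%. The deposited tables give no mapping quality, so the part of ambiguous alignment in these peaks was not tested.

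By chromosome, and without the first intron of Gm20388, density in first introns averaged 48.2 ± 5.77 peaks per Mb (SD over 19 autosomes), with chromosome 3 lowest and chromosome 11 highest (59.6). It was 14.3 on X and 1.45 on Y, which had 1 member. Among all members, those in Gm20388 included, the share of constant-height peaks was 73.2% on X, against 57.1 to 70.0% on the autosomes.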

How the data were processed

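Only the anti-FLAG peak files were used. Per the labels' protocols, Bowtie2 placed the trimmed paired reads on mm10. After the authors' filters for mapping quality and duplicates, SEACR called peaks with IgG as control. Versions, SEACR settings and the annotation tool are not given in the sources used here. The deposited total and maximum signal per peak are the authors' whole-number coverage values, and the depth behind them is unknown. The deposited annotation table gives distance to the TSS as the authors computed it.

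Peaks were joined to their annotation by the region of maximum signal, and 15 peaks of 99797 without annotation were left out. Introns, TSSs and sequence came from GRCm38.p6 and GENCODE M21. Windows were 200 bp, flanks lay 1000 bp away, promoters reached 3 kb, and all coordinates count from 1. Analyses used Python 3.11.15, pandas 2.3.3 and scipy 1.17.1, and the scripts were tested on simulated data. Named members were the 5 highest by maximum and by total signal, the 5 genes with most members, the 5 densest introns, all genes of the PARIS list and up to 4 genes per other list, of which some are not reported here. The 16 gene lists, the 11 motif words and the members were chosen with earlier results of these data known. The motif panel beyond the IRS, the tandem-repeat count and the setting without Gm20388 were added after the data were seen.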

Additional observations from a re-analysis of the deposited data

How the results depend on the processing

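Of 79 alternatives to 9 results, 35 stayed close to the reported value and 44 moved beyond its counting error (for the gene count, beyond a set factor). A reversal was counted only when a value changed sign, and there were 0. Only the GC and IRS differences could change sign, because shares, counts, ratios and medians are always positive. Settings that choose peaks by maximum signal or shape also fix part of the median and constant-height values in advance. Peaks of the highest 10% by maximum signal gave a first-intron share of 10.5% of annotated and 33.9% of intronic peaks, 782 genes, a density ratio of 1.28, a constant-height share of 0.0943%, a median maximum of 236 and a GC excess of 4.64 points. Peaks above the median gave 2971 genes, 53.2% constant height, a median of 133 and a GC excess of 3.36. Leaving out constant-height peaks gave 12.03% of annotated and 33.9% of intronic peaks, 2372 genes, a ratio of 1.28, a median of 130, 29.1% within 10 kb of the intron start, a GC excess of 4.08 and an IRS difference of -4.39. Peaks at least 200 bp wide gave 33.3% of intronic peaks, 53.8%, 94, 2.33 and -2.26 for intronic share, constant height, median, GC and IRS, and merging within 1 kb gave 32.2%, a median of 103 and a GC excess of 2.76.

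Classifying summits by GENCODE M21 instead of the authors' table gave 16.3% of annotated and 43.9% of intronic peaks, since that scheme counts a position as first if any transcript does. Without Gm20388 these shares were 12.2% and 32.1%. The density ratio was 1.23 in protein-coding genes, 1.24 with promoters of 1 kb and 1.14 with shared sequence counted as later. Constant-height shares were 66.4% and 61.9% at a looser and a stricter threshold, and the median of total signal over width was 84. Within 5 and 20 kb of the intron start lay 12.6% and 46.0%. Windows of 400 bp gave a GC excess of 2.31 and an IRS difference of -5.43, and flanks farther away a GC excess of 2.43. The IRS difference was -1.05 in windows without repeat-masked bases and -0.273 against later-intron summits. Libraries could not be paired because each antibody had 1 library, and no replicate could be left out.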

Other observations

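The gene of the intron and the gene assigned by nearest TSS did not always share a symbol. Among the 12224 members whose transcript was in GENCODE M21, the symbols differed for 26.1%. These include the 319 members of Gm20388, none of which was assigned to that gene. The tallest member, in the intron of Gm31718, was assigned to A630001O12Rik, and the peak in Mical3 to Gm4651. How many of the differences are other names for the same gene was not tested.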
